A study of Mus musculus with 9 samples.

Results

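The respiratory chain genes described here are the nuclear genes whose symbols start with Nduf, Sdh, Uqcr, Cox4 to Cox8 or Atp5, sorted into complexes I to V by these prefixes. The deposited table holds 94 of them among 23366 gene symbols: 45 for complex I, 6 for complex II, 8 for complex III, 18 for complex IV and 17 for complex V. Expression was measured in bulk CD8+ T cells from B16F10 tumours, a transplantable mouse melanoma, grown in C57BL/6 mice. The WT group had 5 libraries from wild type mice and the IL27ra KO group had 4 libraries from mice without Il27ra, the specific chain of the interleukin 27 receptor. Per the labels, bulk cell lysates were used and the protocol was adapted from SMART-Seq 2, which copies whole transcripts into cDNA. The sources used here give no age, no treatment and no number of animals per group, and p-values therefore measure library-to-library spread, part of which may be technical. Whether only T cells or all cells of the knockout mice lack the receptor, and which part of the gene was removed, is not given either.

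The respiratory chain sits in the inner mitochondrial membrane. Complexes I and II take electrons from NADH and succinate, complex III passes them to cytochrome c, complex IV gives them to oxygen, and complex V, the ATP synthase, uses the proton gradient that complexes I, III and IV build. Each complex is a stoichiometric assembly, and assembly factors, which are not part of the finished complex, help to build it. In activated T cells respiration runs beside glycolysis, and CD8+ T cells in tumours are known for impaired mitochondrial function. The mitochondrial genome encodes further subunits, which the prefixes do not cover.

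Some facts of the libraries touch every value below. The values are FPKM, fragment numbers scaled to transcript length and library total, which the authors also normalized between libraries. Read numbers are not given with them, so the depth is unknown and no counting interval can be set. Il27ra, the targeted gene, had 25.7, 5.14, 15.2, 14.4 and 15.8 FPKM in WT replicates 1 to 5 and 4.09, 6.5, 5.62 and 7.80 FPKM in IL27ra KO replicates 1 to 4. For this gene the library labelled WT replicate 2 thus lay inside the IL27ra KO range, against its label. By the 16 macrophage and monocyte genes it lay below that range, with a mean log2(FPKM + 1) of 2.75 against 3.67 to 5.18. The reason for its low Il27ra value was not tested. That library also stood apart in the respiratory chain genes, so results are given with and without it. Genes of CD8 T cell identity were present in all libraries: Cd8a had 63.4 to 115 FPKM in WT and 25.2 to 70.7 FPKM in IL27ra KO, and 0 of the 15 genes of that list were at 0 throughout a group. The IL27ra KO libraries held more macrophage RNA: the 16 macrophage and monocyte genes in the table summed to 69.6 to 340 FPKM in WT and to 449 to 1577 FPKM in IL27ra KO, none was at 0 throughout a group, and all 15 that could be tested were higher (limma, adjusted p under 0.05). The CD8 T cell identity genes summed to 1284 to 2002 FPKM in WT and 636 to 1629 FPKM in IL27ra KO. In a bulk library, fewer T cells and less RNA per T cell cannot be told apart, and what part the macrophage or melanoma RNA has in the respiratory chain values was not tested. Ms4a1 of the B cell list and Retnlg of the neutrophil list were at 0 in every library, and these lists summed to at most 3.58 and 4.0 FPKM in a library. The stromal list summed to 2.93 to 7.59 FPKM in WT and to 5.25 to 10 FPKM in IL27ra KO, with medians of 5.97 and 6.29 FPKM, and of the 3 lists 1 gene each was high enough to test and 0 passed. The melanoma genes summed to 380 to 1229 FPKM in WT and 572 to 1348 FPKM in IL27ra KO, with 0 of 8 past the threshold and all 8 differences above 0 (median 0.55 on the log2 scale). Of the CD8 T cell identity genes, Cd3e and Cd8a were lower (limma, adjusted p under 0.05), and all 15 differences were below 0 (median -0.72).

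Many respiratory chain genes share promoter elements, and the best known regulator is NRF1, nuclear respiratory factor 1, which binds a palindrome of GCGC repeats. RefSeq promoter windows (assembly GRCm38.p6, 250 bases before to 50 bases after the gene start) matched 78 of the 94 members, with 84 windows. The full NRF1 palindrome was in 7 of the 84 windows (8.33%), against 0.971% of all 32851 windows and 1.33% of the 21262 windows of protein-coding genes. With its T left free to be any base it was in 20 windows of 19 members (23.8%), against 4.60% and 6.38%. Without the last C of the palindrome, a form added later, GCGCATGCG was in 11.9% of member windows, 1.75% of all and 2.35% of those of protein-coding genes. GCGCANGCG was in 27.4%, 6.25% and 8.58%. For YY1, a zinc finger protein, AANATGGCG was in 15.5% of member windows, 2.38% of all and 3.12% of those of protein-coding genes. The narrower AAGATGGCG, a form added later, was in 10.7%, 1.40% and 1.83%. Extended by GC, as first chosen, it was in 7.14%, 0.633% and 0.889%. All motifs were searched on both strands, and each longer or stricter form is contained in the looser one. The ETS motif CCGGAAGT, bound by GABP, was in 5.95% of member windows, 3.89% of all and 5.15% of those of protein-coding genes. These shares describe letters in windows, without a test, and a match is not a binding site. The windows below show, for each complex, the most highly expressed member with the full NRF1 palindrome, or the form with the T left free where the full one has none, and Sdhaf1, the member whose groups differed most clearly. Sequences are from RefSeq on GRCm38.p6, a later build than the mm9 named for the expression values, and read 5′ to 3′ on the gene's strand, with matches to the palindrome, its T left free, in capitals.
Ndufa11 (chr17:56717512-56717811, plus strand): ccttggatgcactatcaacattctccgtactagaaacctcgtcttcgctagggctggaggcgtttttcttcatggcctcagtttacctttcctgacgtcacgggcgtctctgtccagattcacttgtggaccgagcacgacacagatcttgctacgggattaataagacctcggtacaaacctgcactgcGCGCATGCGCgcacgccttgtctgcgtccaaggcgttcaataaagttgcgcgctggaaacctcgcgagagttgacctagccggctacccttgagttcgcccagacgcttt
Sdhd (chr9:50603800-50604099, minus strand): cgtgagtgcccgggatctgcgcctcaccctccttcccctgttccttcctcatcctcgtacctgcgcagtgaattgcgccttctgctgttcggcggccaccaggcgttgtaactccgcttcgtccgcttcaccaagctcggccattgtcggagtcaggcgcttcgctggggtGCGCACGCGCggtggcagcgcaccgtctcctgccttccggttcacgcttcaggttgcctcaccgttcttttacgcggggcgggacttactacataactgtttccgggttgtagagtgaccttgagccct
Uqcrc1 (chr9:108936398-108936697, plus strand): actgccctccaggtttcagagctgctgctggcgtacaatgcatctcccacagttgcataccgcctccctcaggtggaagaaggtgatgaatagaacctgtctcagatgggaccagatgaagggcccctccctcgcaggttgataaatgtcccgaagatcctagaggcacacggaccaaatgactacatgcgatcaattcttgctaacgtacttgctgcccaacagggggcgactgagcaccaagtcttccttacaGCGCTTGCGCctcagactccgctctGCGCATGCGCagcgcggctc
Cox6a1 (chr5:115348909-115349208, minus strand): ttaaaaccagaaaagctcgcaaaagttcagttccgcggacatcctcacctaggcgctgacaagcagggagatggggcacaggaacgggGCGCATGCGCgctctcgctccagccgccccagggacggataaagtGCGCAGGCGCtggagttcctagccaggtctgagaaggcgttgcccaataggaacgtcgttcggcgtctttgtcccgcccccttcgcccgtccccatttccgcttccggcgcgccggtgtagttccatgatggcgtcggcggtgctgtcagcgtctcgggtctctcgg
Atp5g2 (chr15:102670998-102671297, minus strand): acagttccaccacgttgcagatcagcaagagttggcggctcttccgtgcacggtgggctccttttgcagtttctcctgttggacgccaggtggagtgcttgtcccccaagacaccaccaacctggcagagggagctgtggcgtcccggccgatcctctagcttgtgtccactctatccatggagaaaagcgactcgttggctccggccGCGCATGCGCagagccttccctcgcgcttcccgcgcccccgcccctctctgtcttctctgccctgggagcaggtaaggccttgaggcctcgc
Sdhaf1 (chr7:30322326-30322625, minus strand): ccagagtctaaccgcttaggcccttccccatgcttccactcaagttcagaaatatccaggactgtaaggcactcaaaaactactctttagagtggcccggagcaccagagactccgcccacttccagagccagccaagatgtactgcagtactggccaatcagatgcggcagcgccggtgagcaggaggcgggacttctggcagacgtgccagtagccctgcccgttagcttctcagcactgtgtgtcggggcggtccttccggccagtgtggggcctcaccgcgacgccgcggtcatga
Ndufa11, Sdhd and Atp5g2 have 1 match each upstream of the gene start, Cox6a1 has 2 upstream, and Uqcrc1 has 2 just after the start. The Sdhaf1 window has 0. All 6 genes were among those tested below.

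At the level of the whole complexes, the means of the groups lay close together and the WT libraries were spread more widely than the IL27ra KO libraries. The mean log2(FPKM + 1) of the tested members of complex I was 4.83 ± 0.48 in WT (SD, n = 5) and 4.82 ± 0.04 in IL27ra KO (SD, n = 4). For complex II it was 4.68 ± 0.33 and 4.59 ± 0.07, for complex III 6.14 ± 0.50 and 6.16 ± 0.11, for complex IV 6.99 ± 0.54 and 7.01 ± 0.04, and for complex V 6.10 ± 0.45 and 6.08 ± 0.07. In all 5 complexes the library labelled WT replicate 2 was the highest of the 9 libraries. WT replicates 3 and 4 were the lowest in each complex. Complex IV had the highest mean in all 9 libraries. Complex III came next and then complex V in 7 of the 9 libraries, and the reverse held in WT replicate 4 and IL27ra KO replicate 4. When assembly factors and the members not counted as subunits (Cox7a2l, Atp5s and Atp5sl) were left out, complex V lay above complex III in all 9, while the order of complexes I and II differed between libraries. The members together made up 2.29% to 3.52% of the summed FPKM of a WT library and 2.65% to 2.99% of an IL27ra KO library, with Rn45s, the ribosomal RNA precursor, left out.

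**Figure D1:**
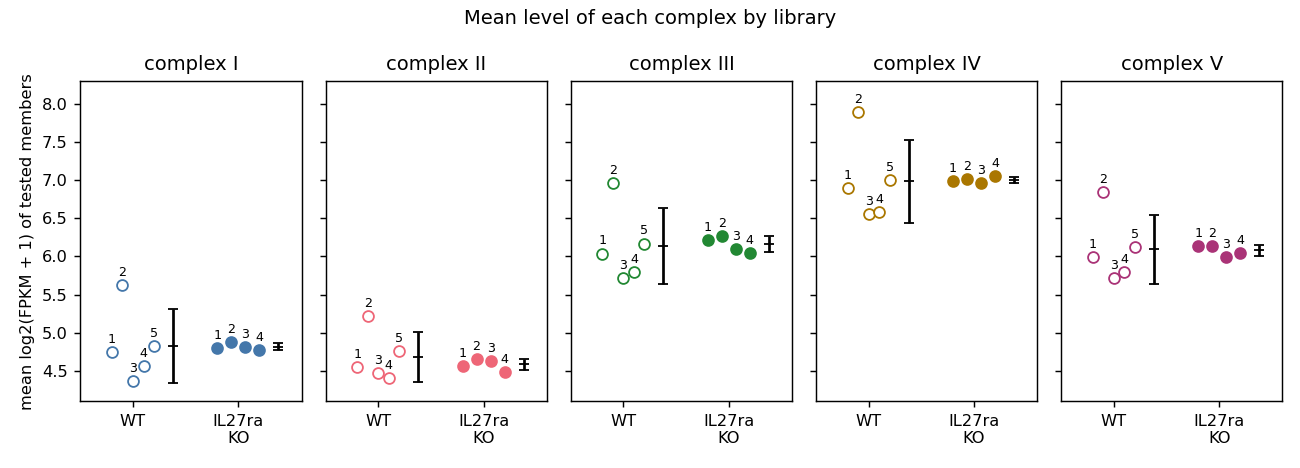
Mean log2(FPKM + 1) of the tested members of each complex (vertical axis) in each library, open circles for WT and filled circles for IL27ra KO, with the replicate number above each point; bars show the group mean and SD. The library labelled WT replicate 2 lies highest in every panel (7.89 for complex IV), and the IL27ra KO libraries lie close together (SD 0.04 for complexes I and IV).

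No respiratory chain gene passed the test between IL27ra KO and WT. Of the 94 members, 86 averaged 1 FPKM or more across the libraries and were tested. Of these, 0 passed (limma, adjusted p under 0.05), where 4.24% of all 10374 genes tested passed. An unadjusted p under 0.05 was reached by 1 member, beside 1563 of all genes tested, which is the larger share. The difference was above 0 for 41 members and below 0 for 45, with a median of -0.01 on the log2 scale beside 0.02 over all genes tested. By complex the medians were -0.03 (complex I, 44 members), 0.07 (complex II, 6), 0.11 (complex III, 8), 0.06 (complex IV, 11) and -0.01 (complex V, 17). A missed threshold does not show equal levels, so the intervals matter: the 95% interval of the difference lay inside a 2-fold change either way for 84 of the 86 members (97.7%), against 77.5% of all genes tested. The exceptions were Sdhaf1 and Ndufs5. The median standard error was 0.26 log2 units.

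Without the library labelled WT replicate 2, most differences moved above 0 and 1 member passed. In that fit 75 of the 86 members were above 0 and 11 below, with a median of 0.19 beside 0.02 over all genes tested, and the median standard error was 0.17. Sdhaf1 alone passed, against 4.78% of all genes tested. An unadjusted p under 0.05 was reached by 10 of the 86 members, beside 1746 of all 10374 genes tested, which is the larger share. Complex III had the highest median (0.29) and complex V the lowest (0.13). The intervals of 84 members again lay inside a 2-fold change. The members' median was near 0 with all libraries, and its sign also turned without WT replicate 5 (0.0062), IL27ra KO replicate 3 (0.02) or IL27ra KO replicate 4 (0.02). Leaving out other WT libraries moved the members the other way. Without WT replicate 3, 25 were above 0 and 61 below (median -0.12), and without WT replicate 4, 31 and 55 (median -0.07). The direction thus depends on which library, WT or IL27ra KO, is left out.

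**Figure D2:**
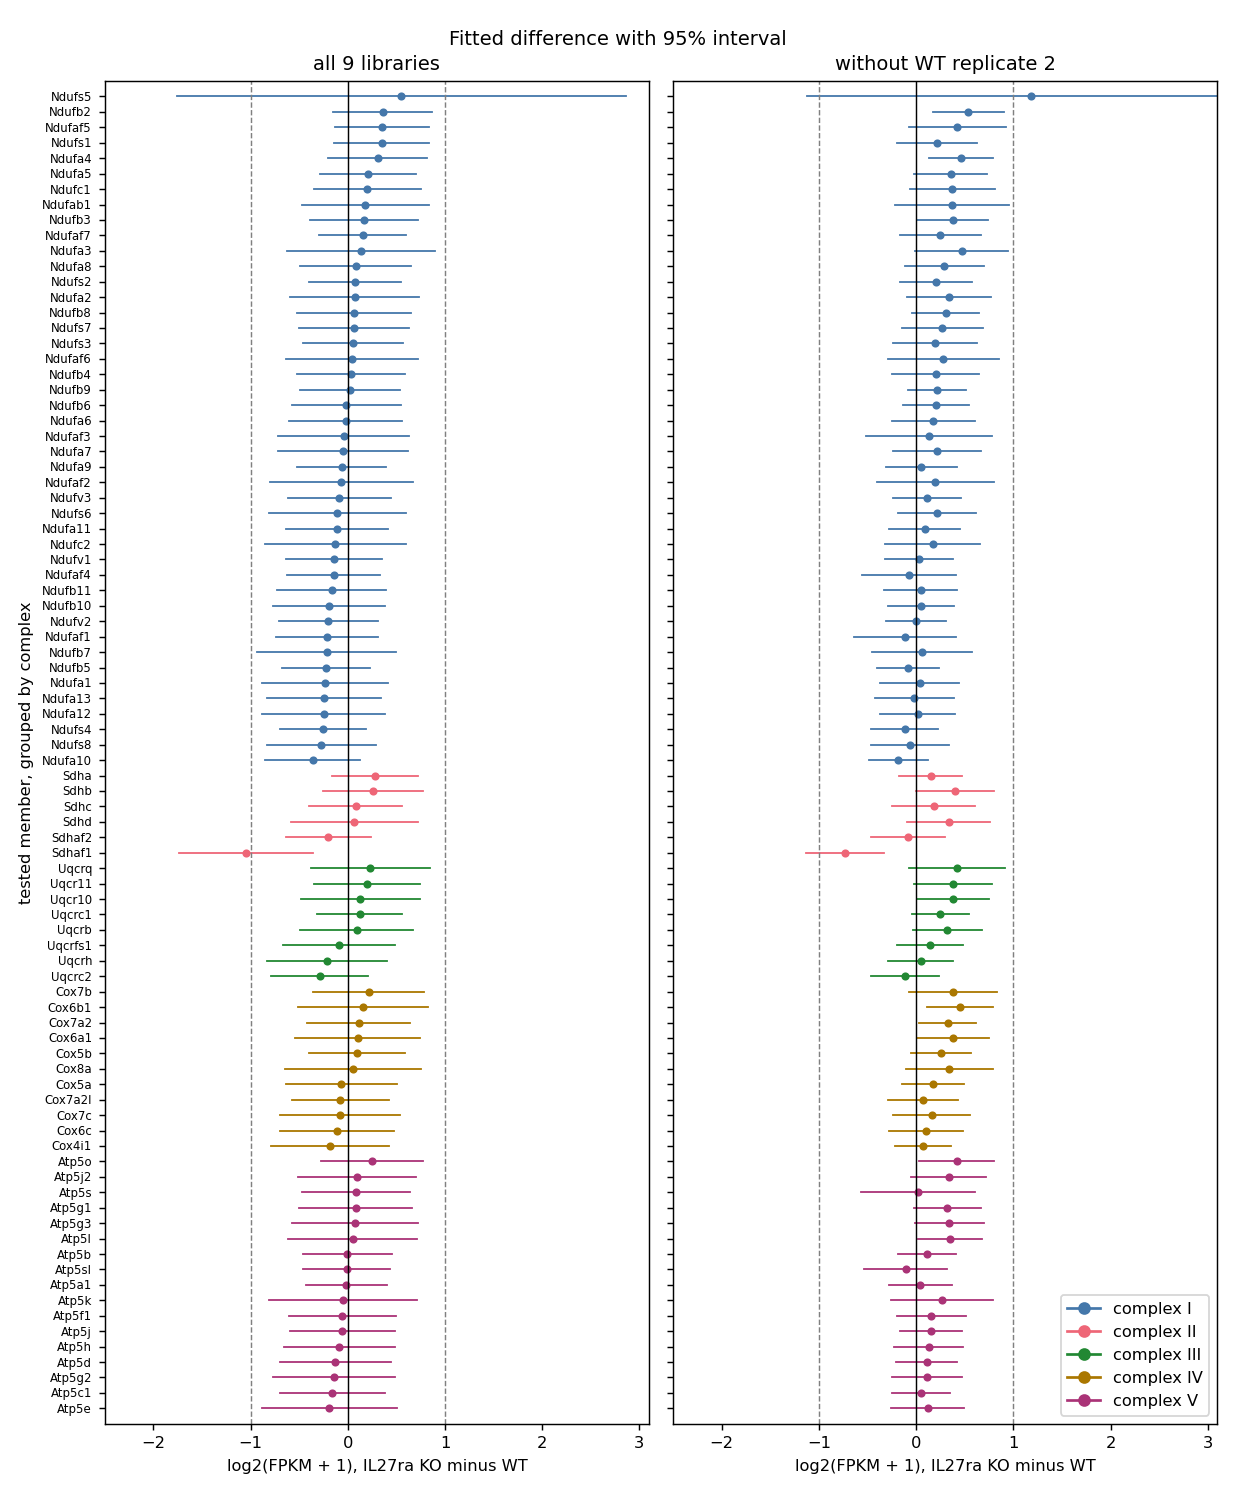
Difference in log2(FPKM + 1), IL27ra KO minus WT, for each of the 86 tested members (horizontal axis), with its 95% interval, in the fit of all 9 libraries (left) and without the library labelled WT replicate 2 (right); colours mark the complexes and dashed lines a 2-fold change. On the left the points lie on both sides of 0 (41 above, 45 below), on the right 75 lie above, and Sdhaf1 is lowest in both; the Ndufs5 interval on the right runs beyond the axis.

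Complex I takes up the largest share of the members. Its 7 core subunits, which carry the flavin and the iron-sulfur clusters, had mean levels of 19.8 to 42.7 FPKM, the 30 tested accessory subunits had 6.56 to 266 FPKM, and the 7 assembly factors had 1.90 to 10.6 FPKM. The 6.56 FPKM is that of Ndufs5, whose zeros are described below, and the next lowest accessory member was Ndufa11 at 10.2 FPKM. Ndufa4, the highest at 266 FPKM, is named for complex I and is now known as a subunit of complex IV. It had 213, 362.5, 176, 228 and 236 FPKM in WT replicates 1 to 5 and 305, 328, 291 and 250.4 FPKM in IL27ra KO replicates 1 to 4. The highest WT value is that of the library labelled WT replicate 2, and all other WT values lay below all IL27ra KO values. The difference was 0.31 (SE 0.24, limma, adjusted p = 0.613), and 0.46 without the library labelled WT replicate 2 (SE 0.15, adjusted p = 0.12). Ndufs1, the largest core subunit, had 20.1, 11.6, 16.9, 20.6 and 18.4 FPKM in WT and 25.9, 23.3, 26.6 and 14.9 FPKM in IL27ra KO. Here the library labelled WT replicate 2 was the lowest of all, and IL27ra KO replicate 4 lay inside the WT range (difference 0.35, SE 0.23, adjusted p = 0.533). Its difference was 0.22 without the library labelled WT replicate 2. Ndufa10, an accessory subunit, had the lowest difference of the complex: 49.4, 84.5, 45.3, 47.2 and 39.3 FPKM in WT and 35.3, 41.2, 39.7 and 42.9 FPKM in IL27ra KO (-0.36, SE 0.23, adjusted p = 0.515). This difference was -0.18 without the library labelled WT replicate 2. The groups overlapped.

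Ndufs5, an accessory subunit, had the highest difference of complex I and the least certain one. It was listed at 9.32, 15.1, 0, 0 and 0 FPKM in WT replicates 1 to 5 and at 0, 0, 25.1 and 9.56 FPKM in IL27ra KO replicates 1 to 4. Zeros stood in both groups, in libraries where no other tested member of complex I was at 0, and a 0 in a table without counts can be a failed estimate. Its difference of 0.55 (SE 1.07, 95% interval -1.76 to 2.86) is therefore not read as a level of expression. Ndufb2, another accessory subunit, had 27.3, 44.5, 25.1, 22.5 and 20.8 FPKM in WT and 35.3, 36.0, 43.2 and 27.2 FPKM in IL27ra KO. The difference was 0.36 (SE 0.24, limma, adjusted p = 0.537), and 0.54 without the library labelled WT replicate 2 (SE 0.17, adjusted p = 0.105). Ndufa4l2, a relative of Ndufa4 known from hypoxic cells, was listed at 0 in all 9 libraries.

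Complex II, succinate dehydrogenase, is encoded entirely in the nucleus and also works in the tricarboxylic acid cycle. Sdha, the flavoprotein, had 37.0, 22.2, 32.1, 32.8 and 39.7 FPKM in WT and 36.5, 46.2, 40.7 and 34.4 FPKM in IL27ra KO, a difference of 0.28 (SE 0.21, limma, adjusted p = 0.593). Sdhb, the iron-sulfur subunit, was the highest of the complex with 94.2, 142, 67.0, 91.0 and 102 FPKM in WT and 127, 141, 113 and 88.2 FPKM in IL27ra KO (0.26, SE 0.24, adjusted p = 0.692). Of the membrane anchors, Sdhd averaged 39.0 ± 21.2 FPKM over the WT libraries (SD, n = 5) against 37.6 ± 6.36 FPKM over the IL27ra KO libraries (SD, n = 4). Sdhc, the lowest of the 4 subunits, had 19.1 ± 5.61 and 19.6 ± 1.75 FPKM. All 4 subunits overlapped between the groups, with differences of 0.07 to 0.28. Without the library labelled WT replicate 2 they were 0.15 for Sdha, 0.40 for Sdhb, 0.18 for Sdhc and 0.33 for Sdhd.

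Sdhaf1, an assembly factor that helps to place the iron-sulfur clusters of Sdhb, stood apart from these subunits. It had 12.5, 36.0, 10.03, 9.26 and 14.8 FPKM in WT replicates 1 to 5 and 5.89, 5.45, 7.73 and 7.14 FPKM in IL27ra KO replicates 1 to 4. Every IL27ra KO value lay below every WT value, which held for 1 of the 86 members and, in either direction, for 6.73% of all genes tested. The difference was -1.05 (SE 0.32, 95% interval -1.74 to -0.36) with limma's adjusted p = 0.0947, short of the threshold. An exact permutation test, two-sided and not adjusted, was run on each tested member and gave p = 0.0238 for Sdhaf1, the lowest of the 86. The gene was singled out because its groups did not overlap, so this p is no separate support. The highest WT value is that of the library labelled WT replicate 2, and without it the difference was smaller and passed (-0.73, SE 0.18, adjusted p = 0.043). It also passed with all libraries scaled to 1 total without Rn45s (-0.98, adjusted p = 0.0454) and with weights for library quality (-0.86, adjusted p = 0.0167). In the other settings the adjusted p lay between 0.0586 and 0.321: it was 0.321 when scaled to the CD8 T cell identity genes (-0.41), 0.202 with the replicate block, 0.18 without a filter, and 0.244 and 0.257 without IL27ra KO replicates 1 and 2. Sdhaf2, the factor that attaches the flavin to Sdha, averaged 7.13 ± 1.79 FPKM over the WT libraries (SD, n = 5) against 6.02 ± 1.09 FPKM over the IL27ra KO libraries (SD, n = 4), with overlapping groups.

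**Figure D3:**
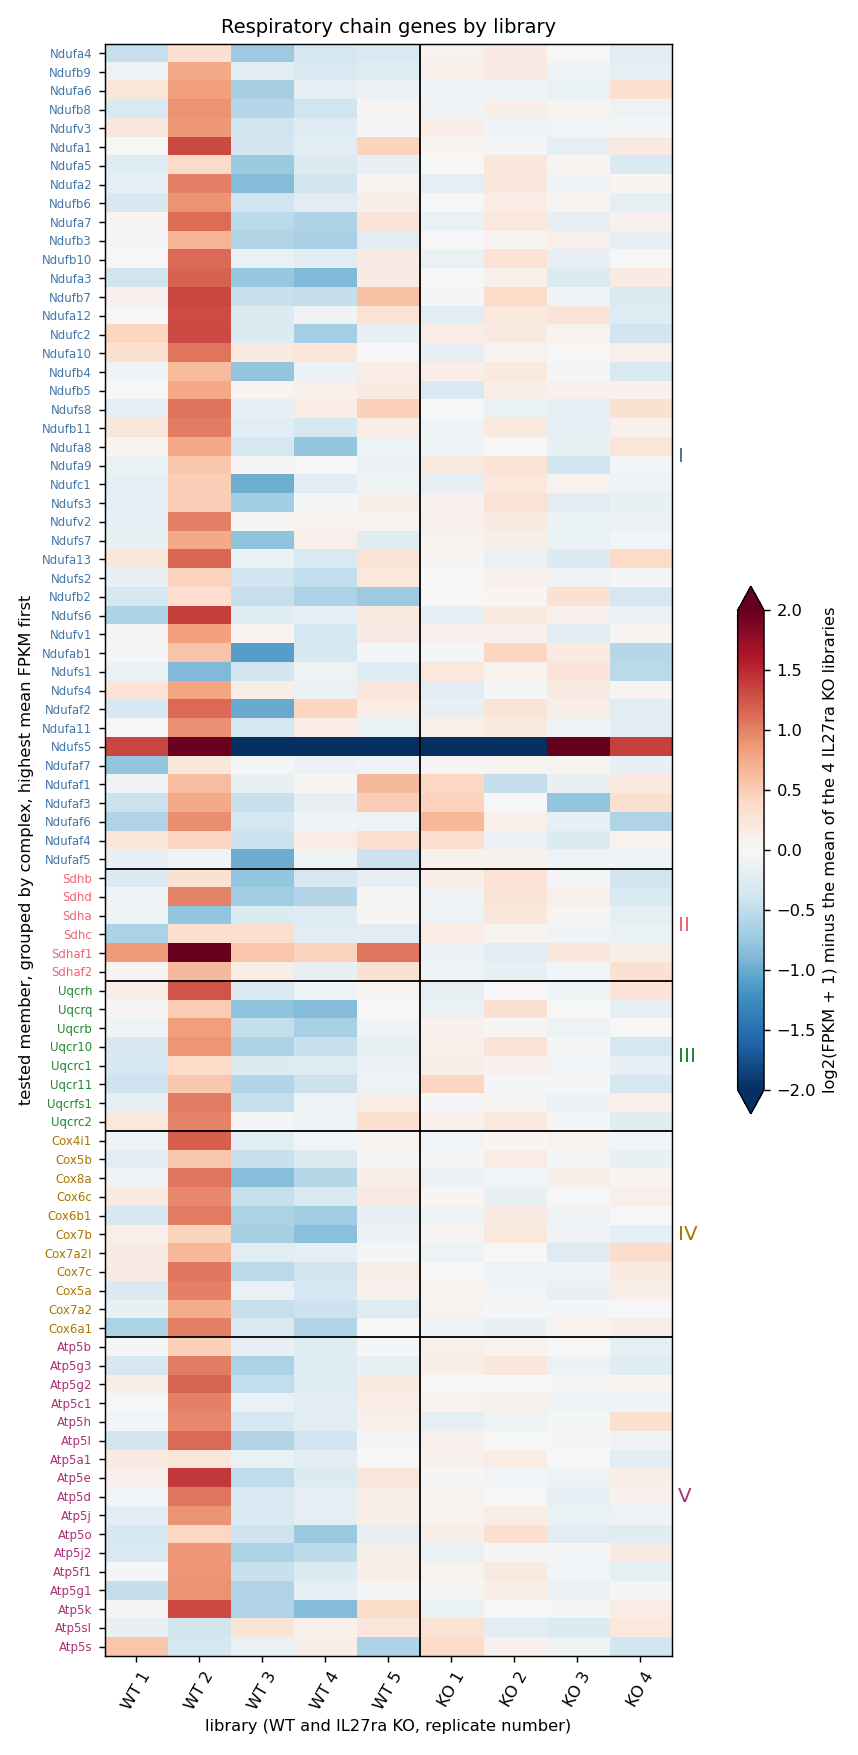
Log2(FPKM + 1) of each of the 86 tested members (rows, grouped by complex, highest mean first) in each library (columns), as the difference from the mean of the 4 IL27ra KO libraries; red is higher, blue lower, and colours end at 2 log2 units. The column of the library labelled WT replicate 2 is red in most rows, the columns of WT replicates 3 and 4 are mostly blue, Sdhaf1 is red in all 5 WT columns, and Ndufs5 swings between zeros and full values in both groups.

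In complex III, the cytochrome bc1 complex, the highest member was 5.10 times the lowest by mean FPKM. Uqcrh, the acidic hinge protein that touches cytochrome c1, was the highest, with 176, 381, 131, 150 and 166 FPKM in WT and 140.4, 160.3, 150 and 193 FPKM in IL27ra KO. All but the value of the library labelled WT replicate 2 lay between 131 and 193 FPKM. Uqcrfs1, the Rieske iron-sulfur protein, averaged 51.7 ± 24.3 FPKM over the WT libraries (SD, n = 5) against 45.3 ± 2.94 FPKM over the IL27ra KO libraries (SD, n = 4). Uqcrc2, a core protein, had the lowest difference of the complex (-0.29, SE 0.23, limma, adjusted p = 0.635), with 36.2, 62.5, 30.6, 29.2 and 39.6 FPKM in WT and 33.0, 35.9, 30.1 and 26.0 FPKM in IL27ra KO. Uqcrq, a small subunit near the ubiquinone site, had the highest (0.23, SE 0.28, adjusted p = 0.786), averaging 111 ± 44.8 FPKM over the WT libraries (SD, n = 5) against 124 ± 20.3 FPKM over the IL27ra KO libraries (SD, n = 4). In each case the groups overlapped. Without the library labelled WT replicate 2 the differences were -0.11 for Uqcrc2 and 0.42 for Uqcrq.

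Complex IV, cytochrome c oxidase, divided sharply by isoform. The 10 ubiquitous subunits had mean levels of 84.6 to 309 FPKM, while the 7 isoforms restricted to tissues such as muscle, lung or testis had at most 0.761 FPKM. Cox4i2, the lung isoform of subunit 4, was listed at 0.40 FPKM in IL27ra KO replicate 4 and at 0 in the other 8 libraries. Cox7a1, a heart and muscle isoform, was listed at 0, 1.2, 0, 1.16 and 0 FPKM in WT and at 2.12, 0.80, 0 and 1.57 FPKM in IL27ra KO. Cox6b2, a testis isoform, was listed at 0.63, 1.91, 0, 0 and 0 FPKM in WT and at 0.56, 0.63, 0 and 0 FPKM in IL27ra KO. Cox6a2, Cox7b2, Cox8b and Cox8c were listed at 0 in all 9 libraries. These 7 isoforms were too low to be tested, and no fold is given between them and their counterparts because the depth is unknown.

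Among the ubiquitous subunits of complex IV, Cox4i1 was the highest member of all, with 260.2, 632, 238, 264 and 288 FPKM in WT and 264, 282, 289 and 266 FPKM in IL27ra KO. Apart from the library labelled WT replicate 2, every library lay between 238 and 289 FPKM, and the groups overlapped (difference -0.18, SE 0.28, limma, adjusted p = 0.84; 0.07 without that library). Cox7b had the highest difference of the complex (0.22, SE 0.26, adjusted p = 0.787), with 134, 171, 78.1, 69.8 and 115 FPKM in WT and 129, 144, 119 and 109.8 FPKM in IL27ra KO. Its difference was 0.38 without the library labelled WT replicate 2. Cox6b1, which faces the intermembrane space, had 99.5, 256, 80.2, 76.8 and 112 FPKM in WT and 117, 140.3, 118 and 124 FPKM in IL27ra KO. Cox7a2 had 85.0, 158, 68.9, 70.1 and 78.8 FPKM in WT and 99.2, 92.0, 92.3 and 95.4 FPKM in IL27ra KO. For both, all WT values but that of the library labelled WT replicate 2 lay below all IL27ra KO values. Without that library the groups did not overlap for 4 members, Sdhaf1, Ndufa4, Cox6b1 and Cox7a2, against 10.1% of all genes tested. The differences in that fit were 0.45 for Cox6b1 (SE 0.16, adjusted p = 0.152) and 0.32 for Cox7a2 (SE 0.13, adjusted p = 0.238). Cox7a2l, a member not counted as a subunit here, averaged 114 ± 31.8 FPKM over the WT libraries (SD, n = 5) against 106 ± 20.8 FPKM over the IL27ra KO libraries (SD, n = 4).

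Complex V makes ATP in its F1 head while protons turn the ring of c subunits in the membrane. Of the F1 subunits, Atp5b, the catalytic beta subunit, was the highest, with 243, 346, 222, 211 and 245 FPKM in WT and 267, 263, 252 and 218 FPKM in IL27ra KO. Its fitted difference was -0.0026, with a 95% interval of -0.4601 to 0.455. Atp5a1, the alpha subunit, averaged 111 ± 15.2 FPKM over the WT libraries (SD, n = 5) against 109.8 ± 12.2 FPKM over the IL27ra KO libraries (SD, n = 4). Alpha and beta are present in equal number in the enzyme, and their RNA levels per length differed. Atp5e, the small epsilon subunit, had the lowest difference of complex V (-0.19, SE 0.32, limma, adjusted p = 0.858), with 90.0, 229, 59.3, 70.0 and 99.0 FPKM in WT and 86.3, 82.0, 78.9 and 92.5 FPKM in IL27ra KO. Without the library labelled WT replicate 2 it was 0.12. Atp5o, the stalk protein that gives the enzyme its oligomycin sensitivity, had the highest (0.25, SE 0.24, adjusted p = 0.708), with 70.3, 120.4, 67.3, 53.6 and 80.4 FPKM in WT and 98.3, 113, 78.0 and 76.1 FPKM in IL27ra KO. Both genes overlapped between the groups. The difference of Atp5o was 0.42 without the library labelled WT replicate 2.

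Mouse cells carry 3 genes for the c subunit, Atp5g1, Atp5g2 and Atp5g3, whose products differ in the leader peptide and are the same protein after import. Atp5g3 supplied 48.6% ± 2.08 of their summed FPKM in WT (SD, n = 5) and 51.4% ± 3.6 in IL27ra KO (SD, n = 4). Atp5g2 supplied 38.8% ± 3.04 and 35.3% ± 3.25, and Atp5g1 12.6% ± 1.28 and 13.4% ± 0.49. The ranges overlapped for all 3 genes. The sum of the 3 was 361, 852, 272, 343 and 406 FPKM in WT and 429, 448, 383 and 381 FPKM in IL27ra KO. Its share per gene in the library labelled WT replicate 2 (49.99%, 38.01% and 11.99% for Atp5g3, Atp5g2 and Atp5g1) lay inside the range of the other WT libraries although its sum was the highest. Paralogs can share reads, so the split among the 3 carries that uncertainty. The prefix also takes in Atp5s and Atp5sl, which are not counted as subunits, at 1.78 and 3.70 FPKM.

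The library labelled WT replicate 2 stood apart along the length of the transcripts. It was the highest of the 9 libraries for 78 of the 86 tested members (90.7%), beside 24.7% of all genes tested. WT replicate 3 was the lowest for 41 members and WT replicate 4 for 21. Against the mean of the other WT libraries, the members in the library labelled WT replicate 2 were higher by a median of 1.05 log2 units. Among 46 members with transcripts under 750 bases the median was 1.21 and all 46 were above 0. Among all 748 tested genes of that length it was 0.84, and among the 4901 genes of at least 2500 bases -0.38. Only 3 members are that long. Of these, Ndufs1 (2590 bases, -0.66) and Sdha (2900 bases, -0.65) were below 0 and Ndufaf4 (3632 bases) was at 0.35. Atp5sl and Atp5s, of 1465 and 1485 bases, were the other members below 0. Sdhaf1 (2490 bases) lay apart from the rest at 1.57.

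Across the 86 members the correlation of this deviation with log2 transcript length was -0.57 (Pearson) and -0.57 (Spearman). Across 10305 tested genes with a length it was -0.51 and -0.53. Genes of 1 library share that library's preparation, so these values are descriptions. For every library the deviation was taken from the mean of the other libraries of its group. WT replicates 3 and 4 had Pearson values of 0.40 and 0.33 across the members and 0.37 and 0.29 across all genes. WT replicates 1 and 5 had 0.05 and 0.06, and 0.13 and -0.02. The reference of these WT libraries holds the library labelled WT replicate 2, whose trend thus enters with the opposite sign. Their values are therefore not read as separate trends. In the 4 IL27ra KO libraries the values lay between -0.10 and 0.22 for the members and between -0.08 and 0.03 for all genes. Rn45s took 53.8% and 50.8% of the summed FPKM in WT replicates 3 and 4, 30.0% in the library labelled WT replicate 2, and 23.9% to 30.0% in the other 6. After the trend on length was taken out of each library, a step chosen after the data had been seen, 43 members were above 0 and 43 below, with a median of -0.0002 and 0 members past the threshold. The median over all genes tested was -0.0002 as well. The step draws the differences at each length toward 0, so the members' median there is partly set by it.

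**Figure D4:**
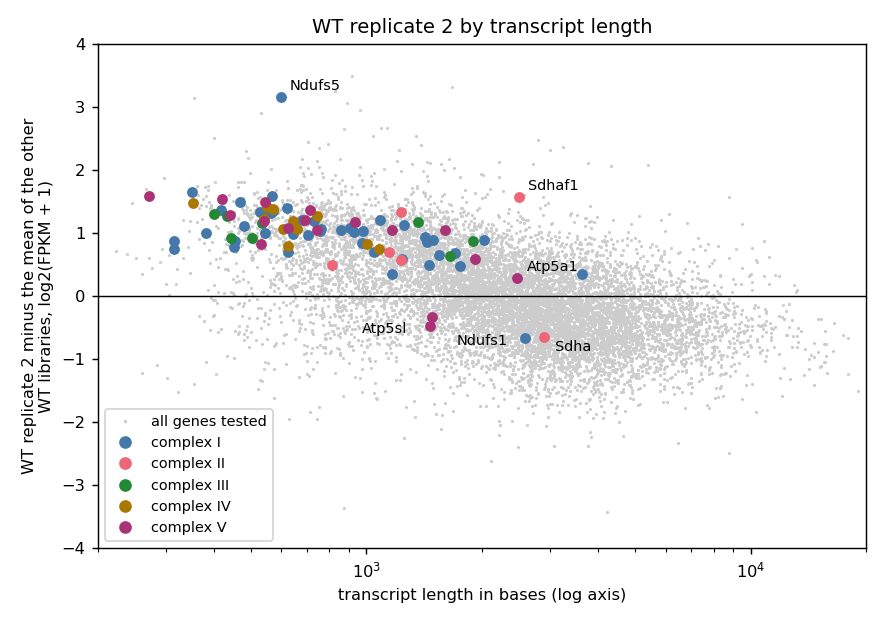
Difference of the library labelled WT replicate 2 from the mean of the other 4 WT libraries in log2(FPKM + 1) (vertical axis) against transcript length (horizontal log axis), with all genes tested in grey and the members coloured by complex. Members under 750 bases all lie above 0 (median 1.21), while the long members Ndufs1 and Sdha lie below 0 and Sdhaf1 lies at 1.57.

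The spread between libraries shows the same split. The median SD of a member was 0.54 log2 units in WT and 0.17 in IL27ra KO. Without the library labelled WT replicate 2 the WT value was 0.26, close to the 0.29 of all genes tested, which were at 0.38 with that library. For complex IV the IL27ra KO value was 0.12 and for complex V 0.13, beside 0.25 for all genes tested in the same libraries and 0.22 for the 3258 genes of at least 10 FPKM. Across the 86 members, mean levels in WT and in IL27ra KO, on the log2 scale, had a Pearson correlation of 0.99, which describes the order of the levels and carries no test.

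Genes that work beside the chain were counted by list, and since 4.24% of all genes tested passed, a count of 0 in lists this short is near the background. Of 13 genes for electron carriers, metabolite carriers and pores, 13 were tested and 0 passed in either direction (limma, lowest adjusted p = 0.614). Cytochrome c itself, Cycs, averaged 34.9 ± 5.10 FPKM over the WT libraries (SD, n = 5) against 41.2 ± 8.22 FPKM over the IL27ra KO libraries (SD, n = 4). Slc25a3, the mitochondrial phosphate carrier, had 269 ± 95.2 and 216 ± 24.9 FPKM, and Etfb, a subunit of the electron transfer flavoprotein, 51.4 ± 20.3 and 39.2 ± 4.05 FPKM. Of 19 assembly factors outside the prefixes, 0 passed (lowest adjusted p = 0.481). Among these Bcs1l, which inserts the Rieske protein, had a difference of -0.36, Lrpprc, which stabilises mitochondrial mRNA, one of 0.43, and Foxred1, a complex I assembly factor, one of 0.35. Of 12 regulators of mitochondrial genes, 0 passed (lowest adjusted p = 0.452), with 4 differences above 0 and 8 below. Those above 0 were Ppargc1a (0.371, SE 0.373), Ppargc1b (0.26, SE 0.27), Esrra (0.25, SE 0.28) and Pprc1 (0.24, SE 0.29), and Nrf1 was at -0.02. Each of these 4 SEs exceeded its difference. Ppargc1b (1.04 FPKM in WT, 1.36 FPKM in IL27ra KO) and Esrra (0.98 and 1.28 FPKM) lay near the floor. Gabpb1, a subunit of GABP, had 7.17 ± 1.89 and 5.22 ± 0.98 FPKM, Tfam, which packages mitochondrial DNA, 5.49 ± 1.02 and 4.47 ± 0.89 FPKM, and Tfb2m, a mitochondrial transcription factor, 6.18 ± 0.36 and 5.19 ± 1.06 FPKM (SD, n = 5 and n = 4). Of 13 tricarboxylic acid cycle genes, 0 passed (lowest adjusted p = 0.585), with differences of -0.29 for Idh3b, 0.28 for Dld and 0.27 for Suclg2. The medians of the 4 lists were 0.07, -0.11, -0.04 and 0.11 log2 units, beside 0.02 over all genes tested. Of 8 proliferation genes 0 passed as well (median 0.03, lowest adjusted p = 0.433).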

How the data were processed

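Gene expression in bulk CD8+ T cells from B16F10 tumours was analysed in 9 libraries, grouped by the genotype in their titles. The deposited values are FPKM per gene, which the authors obtained with RSEM and normalized by TMM, per the labels. The submitters' processing notes name TopHat, RSEM, DESeq and the build mm9, without versions or roles. The sources used here give no strand setting and no depth. Columns of other samples numbered 0. RSEM divides reads among similar genes, and PCR copies, which carry no molecular identifiers, add to the spread.

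The 10374 genes averaging 1 FPKM or more were fitted as log2(FPKM + 1) with limma 3.58.1 in R 4.3.3 (lmFit, eBayes with a trend; Benjamini-Hochberg over all genes, threshold 0.05), as IL27ra KO minus WT. Fold changes are on that scale, which understates those of low genes. Transcript lengths are the middle length of a gene's protein-coding transcripts in GENCODE M21, matched for 99.3% of tested genes and all 86 tested members. Promoter windows came from RefSeq; the motif forms named as added later were chosen after the first results. Of 82 member windows, 70 had the bases after the start inside a GENCODE transcript of the gene.

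Members and lists were chosen with earlier results of these data known. Named with values are, in each complex, the members with the highest and lowest difference and the highest level, isoform pairs, fixed representatives, members whose groups do not overlap, and up to 3 genes of each pathway list. Ndufb2, Cox7a2l, Sdhaf2, Nrf1 and the regulators above 0 were added after their values were seen. Replicate numbers did not pair the libraries. As alternatives, the pseudocount was set to 0.1 or 5, the filter to none or 5 FPKM, and the rest were 4 other scalings, robust and weighted fits, the replicate block, removal of a length trend, and each library left out in turn.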

Additional observations from a re-analysis of the deposited data

Results flagged for a closer look

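Values of 1 library far from the others of its group were looked for in the mean levels of the 5 complexes and in the 21 named members, 52 tests in all, of which chance gives about 1 in 20. In 3 of them, all in WT, the library labelled WT replicate 2 was the highest by a gap that made up most of the group's range: Cox4i1 at 632 FPKM, Uqcrh at 381 FPKM and Cox7a2 at 158 FPKM. The gaps were 0.80, 0.72 and 0.75 of the range on the log2 scale. The tests share the same libraries, and the complex means are built from members, so the 52 tests are not independent. The count of 3 is therefore not weighed against the stated rate. Cox7a2 was among the named members because its groups did not overlap without that library, so its flag is no separate evidence.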

How the results depend on the processing

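The count of members past the threshold was 0 in 9 of the 12 other settings and, leaving out each library in turn, in 8 of 9 fits (range 0 to 1). It was 1 (Sdhaf1) without the library labelled WT replicate 2 and on scaling to 1 total without Rn45s, 2 (Sdhaf1 and Ndufb2, 0.57) with weights for library quality, which gave that library the lowest weight (0.22), and 1 (Ndufa4, 1.01, adjusted p = 0.0429) when the CD8 identity list set the scale. The last scaling moved the median of all genes to 0.61 and that of the members to 0.66, with medians of 0.63, 0.76, 0.80, 0.76 and 0.64 for complexes I to V, and turned Atp5e (0.51), Cox4i1 (0.52), Ndufa10 (0.33) and Uqcrc2 (0.40) above 0; relative to all genes, the members' median was 0.04. With weights Cox4i1 was at 0.0164. Over all genes 440 passed (325 higher, 115 lower), against 1107 with the identity scaling (1056 higher, 51 lower), 974 with weights, 219 with the filter at 5 FPKM and 273 with the replicate block, and 226 to 632 when 1 library was left out, with 242, 268 and 226 without IL27ra KO replicates 1, 2 and 3. Leaving out 1 library moved the medians of complexes I to V within -0.16 to 0.20, -0.01 to 0.16, -0.00 to 0.29, -0.12 to 0.25 and -0.08 to 0.13. It moved Atp5e within -0.36 to 0.12, Cox4i1 within -0.28 to 0.0713, both above 0 without the library labelled WT replicate 2, and Ndufs5 within -0.34 to 1.23, below 0 without IL27ra KO replicate 3. The cause of these moves was not tested. Same-numbered libraries did not deviate together over all genes (correlations -0.15 to 0.00), so the numbers are not read as pairs; the replicate block called 0 members. The unknown depth limits what can be said of genes near 0.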
